A study of Mus musculus with 12 samples.

Results

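The macrophage and myeloid identity genes of mouse sarcoma grafts are described here, with the question of which of them separated tumors carrying catalytically deficient Vnn1 from tumors carrying intact Vnn1. The genes were a list of 42 symbols, chosen by name but with earlier results of these data known. Where a gene had several probesets, the one with the highest average level was read. Of the 42 genes, 40 were measured and tested among 16573 tested genes, and all 40 exceeded the 25th percentile of all values, a log2 value of 5.38, on each of the 12 arrays. Slc11a1 and Lyn were not analysed here.

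The tumors grew from cells of a Ras-transformed myofibroblast line, placed under the skin of Nude mice, and were taken after 2 to 3 weeks according to how fast they grew. The parent cells came from C57BL/6 mice deficient for p16, p19 and Vnn1, so every group shared these deficiencies, the oncogenic Ras and the immunodeficient host, which lacks thymus-derived T cells but keeps its myeloid cells. R tumors carried Ras and a mock construct, VdR tumors carried Ras and Vnn1 without catalytic activity, and VR tumors carried Ras and intact Vnn1, with 4 tumors in each group, numbered 1, 2, 4 and 5. The 4 tumors of a group are grafts of 1 transduced line, so p-values measure the spread between grafts and not between transductions. The study's methods give 1 harvest day for all array tumors, whereas the labels give a window that depended on growth rate. The arrays gave 1 log2 value per probeset, and levels of different genes are not compared because each probeset has its own scale.

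Macrophages of solid tumors arise from blood monocytes and resident tissue cells, and depend on the growth factor Csf1 and its receptor Csf1r for survival. The transcription factor PU.1, encoded by Spi1, is required for the myeloid lineage and acts on the promoters of many of these genes. Fc receptors of the macrophage surface bind the constant part of antibodies and signal through adaptors with an activating motif (ITAM) or directly through an inhibitory motif (ITIM), while the phagocyte oxidase makes superoxide in the compartments that hold engulfed material. The measured RNA was that of the tumor mass, as the study's methods describe it, whereas the labels speak of sorted cell subsets. In such bulk samples fewer cells of a type and less RNA per cell cannot be told apart.

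The transgene followed its labels. The Vnn1 probeset had log2 values from 5.53 to 5.83 in R, from 11.37 to 11.73 in VdR and from 10.54 to 11.26 in VR tumors, so that the VR and VdR tumors did not overlap. None of the 40 measured identity genes lay at or below the 25th percentile of all values on every array. Of the markers of other blood cells, 5 of 14 for neutrophils (S100a8, Cxcr2, Retnlg, Ly6g and Mmp8), 2 of 8 for T cells (Cd3d and Cd3g) and 2 of 6 for B cells (Ms4a1 and Cd79a) did, and the other 9, 6 and 4 exceeded it on at least 1 array. Array pairs within a group correlated from 0.988 to 0.996 over the tested genes.

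Sequence upstream of the genes is shown for 4 genes that the comparisons below return to: Fcgr3 and Fcgr2b, which had the largest and the next largest difference toward VdR, Csf2ra, which had the largest toward VR, and Itgam, which had the largest difference between VdR and R. Each sequence holds the 250 bases before the RefSeq transcript start in GRCm38.p6, written 5′ to 3′ on the strand of the gene, and capitals mark the letters GAGGAA or their reverse complement TTCCTC, which are the core of the site PU.1 binds. Fcgr3 lies on the minus strand at chr1:171059395-171059644, Fcgr2b on the minus strand at chr1:170976072-170976321, Csf2ra on the minus strand at chr19:61228419-61228668 and Itgam on the plus strand at chr7:128062390-128062639.
Fcgr3: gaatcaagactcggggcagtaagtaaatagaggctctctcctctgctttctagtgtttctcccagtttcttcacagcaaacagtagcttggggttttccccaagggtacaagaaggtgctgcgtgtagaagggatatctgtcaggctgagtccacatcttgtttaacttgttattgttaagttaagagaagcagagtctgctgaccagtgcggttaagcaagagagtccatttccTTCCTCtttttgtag
Fcgr2b: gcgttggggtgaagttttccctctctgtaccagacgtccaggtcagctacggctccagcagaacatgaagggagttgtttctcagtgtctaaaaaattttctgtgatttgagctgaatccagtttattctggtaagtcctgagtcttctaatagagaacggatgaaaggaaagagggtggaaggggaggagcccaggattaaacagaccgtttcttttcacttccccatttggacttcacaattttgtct
Csf2ra: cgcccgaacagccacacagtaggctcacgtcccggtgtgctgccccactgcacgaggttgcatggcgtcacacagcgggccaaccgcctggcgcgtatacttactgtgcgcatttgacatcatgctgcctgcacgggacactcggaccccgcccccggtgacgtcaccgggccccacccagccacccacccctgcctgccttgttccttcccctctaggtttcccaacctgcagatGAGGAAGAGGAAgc
Itgam: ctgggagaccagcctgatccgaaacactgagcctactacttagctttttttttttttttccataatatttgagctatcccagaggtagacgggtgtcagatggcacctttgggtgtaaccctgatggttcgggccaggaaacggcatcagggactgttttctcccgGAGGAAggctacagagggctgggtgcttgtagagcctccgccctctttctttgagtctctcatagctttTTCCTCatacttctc

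The Fcgr3 window held 1 match, which began at position -15 relative to the start, and the Itgam window held 2, beginning at positions -84 and -15 relative to the start. The Csf2ra window held 2 adjoining matches at -14 and -8, and the Fcgr2b window held none of these letters. RefSeq windows were at hand for 27 of the 40 genes (31 windows, since some genes have 2 starts), and 13 windows of 12 genes, or 41.9%, held GAGGAA on either strand, compared with 23.3% of all 32851 windows. The other genes with a match were Aif1, Cd53, Cd68, Fcgr1, Fcgr4, Lair1, Laptm5, Ptafr and Ptprc. Of the 3 other motifs searched on both strands, TGACTCA (AP-1) was in 6.45% of the members' windows and 4.46% of all, TATAAA in 9.68% and 12.4%, and TTGCGCAA (C/EBP) in 0 of 31 windows and 0.164% of all. A match is a description of these letters and not a site shown to be bound.

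None of the 40 genes separated VdR from VR tumors in the test across all genes. With 3.44% of all tested genes passing in this comparison (1.77% higher and 1.67% lower in VR; limma, adjusted p under 0.05), 0 of 40 identity genes passed in either direction, and the smallest adjusted p was 0.103. The median of the 40 log2 differences (VR minus VdR) was -0.04, or 0.971-fold, beside a median of -0.02 over all tested genes, with 17 genes above and 23 below 0. The largest difference in either direction was 0.41, or 1.33-fold, and for 22 of the 40 genes the difference was smaller than the pooled SD of the tumors. At an unadjusted p under 0.05, 7 of 40 genes (17.5%) were counted, compared with 19.2% of all tested genes. The methods' t-test also called 0 genes of the list. It called only 12 higher and 18 lower in VR of all tested genes, so its 0 adds little. The share over all genes rested on single tumors: 32 genes were higher and 54 lower in VR without VR replicate 4, compared with 293 and 277 in all tumors. With so few genes passing, the 0 of 40 identity genes there adds little. Without VR replicate 2 or 5 or VdR replicate 1, 4 or 5 the share over all genes was also over 1.5 times smaller.

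The data also bounded how far the groups could differ. The 95% interval of the VR minus VdR difference lay within 2-fold either way for 39 of 40 genes and within 1.5-fold for 30, and the exception to the first was Siglec1, whose interval reached from -1.01 to 0.37. Over all 40 genes the bounds ran from -1.01 to 0.85 on the log2 scale. In simulated data with normal noise of the spread of these arrays, the same fit of VR versus VdR over 16573 genes recovered 46 of 50 genes changed 1.5-fold and 48 of 50 genes changed 2-fold. The noise was drawn separately for each gene and tumor, whereas the real tumors of a group differed across many genes at once. The changed genes were drawn at random from all tested genes. The recovery is thus not that of the identity genes, whose SE differed from gene to gene and reached 0.32 for Siglec1.

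**Figure D1:**
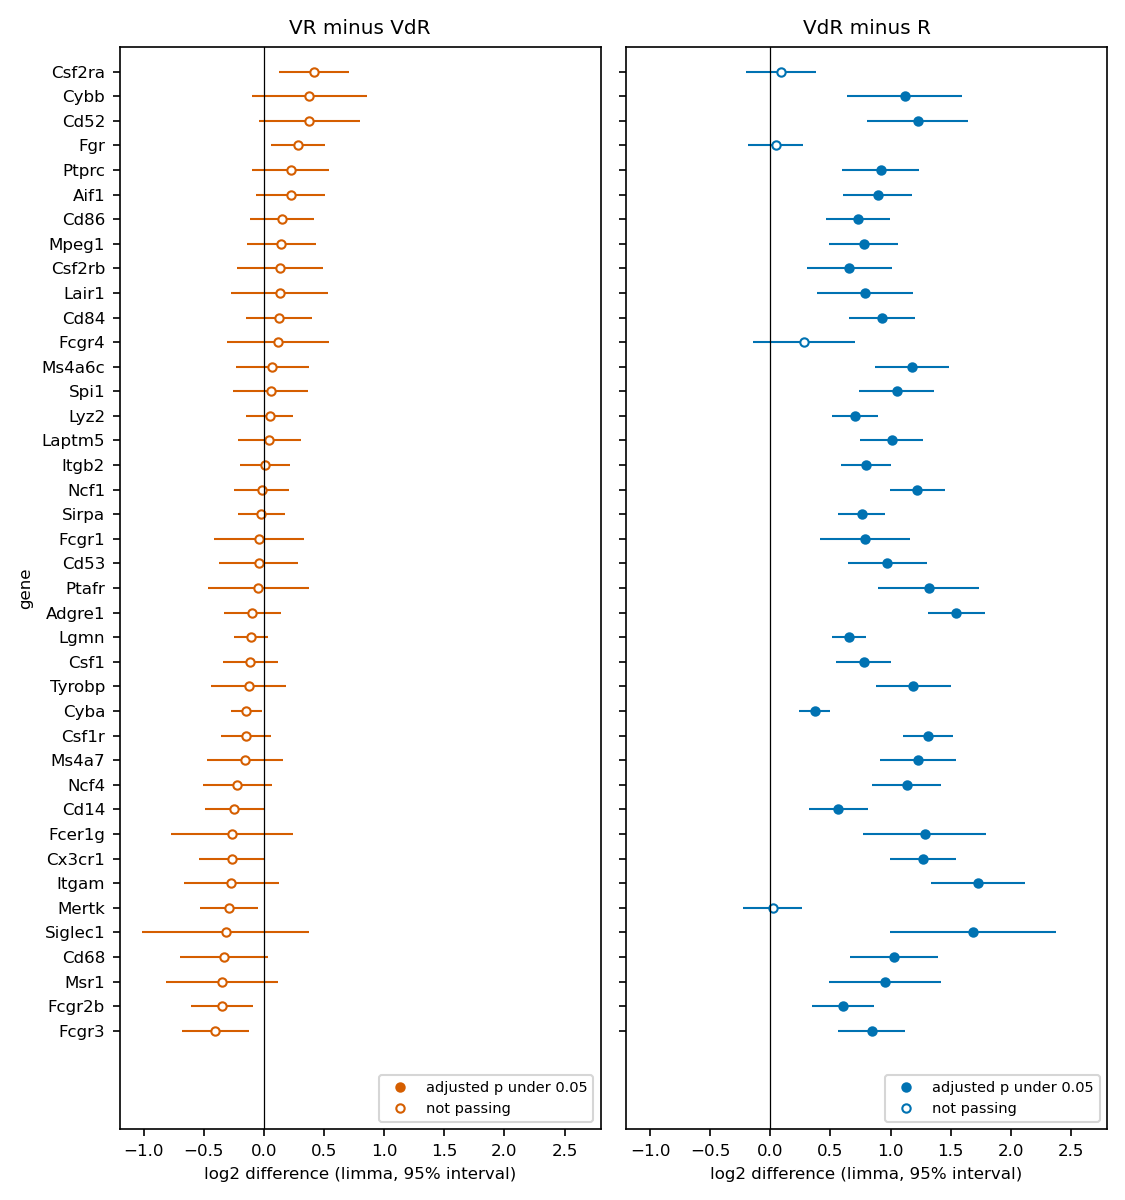
Log2 difference of the 40 identity genes in VR versus VdR (left) and in VdR versus R (right) with limma's 95% intervals (4 tumors per group). Filled points passed an adjusted p of 0.05 over all 16573 tested genes: 0 genes on the left and 36 on the right, where the open points are Csf2ra, Fgr, Fcgr4 and Mertk.

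By contrast, most of these genes were higher in both Vnn1-carrying groups than in R tumors. Between VdR and R tumors, where 6.58% of all tested genes were higher and 2.81% lower (9.38% in all), 36 of 40 identity genes (90%) were higher and 0 were lower, with a median log2 difference of 0.92 (1.90-fold) beside a median of 0.00377 over all tested genes. Between VR and R tumors, where 13.6% of all tested genes were higher and 7.48% lower (21.1% in all), 35 of 40 (87.5%) were higher and 0 were lower, with a median of 0.92 (1.89-fold) beside -0.01 over all genes. These comparisons share the R tumors. Groups that did not overlap were seen for 36 genes between VdR and R, all higher in VdR, beside 14.2% of all tested genes (9.73% higher and 4.5% lower), and for 31 between VR and R, all higher in VR, beside 25.8% (15.3% and 10.5%). The methods' t-test with Benjamini-Hochberg adjustment called 24 identity genes higher in VdR than in R, where it called 391 of all tested genes higher. Between VR and R it called 27 identity genes higher, where it called 1448 of all tested genes higher. It did not call Aif1, Cd14, Csf2rb, Cybb, Fcer1g, Fcgr2b, Fcgr3, Lair1, Mpeg1, Msr1, Ptprc and Siglec1 in VdR (adjusted p from 0.0555 to 0.138), nor Cd68, Cyba, Fcer1g, Fcgr1, Fcgr3, Fgr, Lair1 and Siglec1 in VR (0.0574 to 0.147), all of which passed in limma. In limma, the genes that did not pass between VdR and R were Fcgr4, Mertk, Csf2ra and Fgr, and those that did not pass between VR and R were Cd14, Fcgr2b, Fcgr4, Mertk and Msr1.

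**Figure D2:**
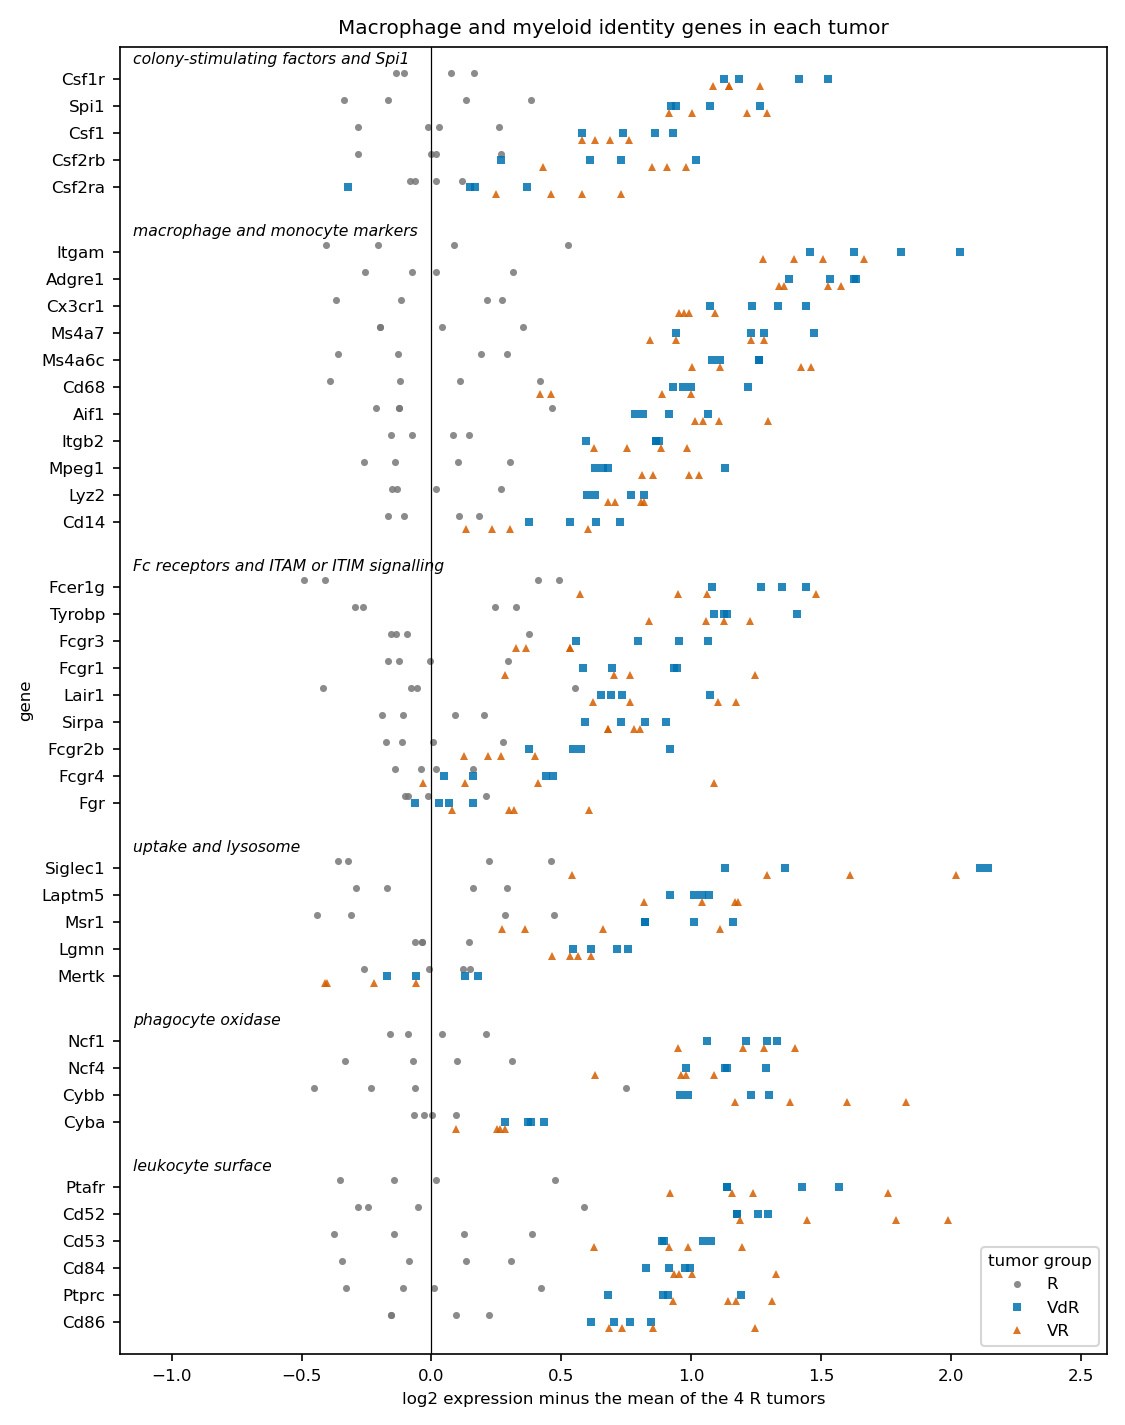
Log2 expression of each of the 40 identity genes in each tumor, as the distance from the mean of the 4 R tumors, grouped by role. VdR tumors (squares) and VR tumors (triangles) lie in the same range for most genes. VdR tumors lie to the right of the R tumors (circles) except for Mertk, Fgr, Fcgr4 and Csf2ra, where they overlap with R. VR tumors lie to the right of the R tumors except for Mertk, Fgr, Fcgr4, Cd14, Fcgr1, Fcgr2b, Fcgr3, Msr1 and Cyba, where they overlap with R. For Csf2ra the VR tumors lie above the R tumors without overlap.

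Of the 5 genes of the colony-stimulating factor pathway and Spi1, 4 were higher in VdR than in R, with Csf2ra as the exception, and all 5 in VR than in R. Values of single tumors are given here and below in the order of tumors 1, 2, 4 and 5. Csf1, the growth factor itself, had log2 values of 10.26, 10.49, 9.95 and 10.22 among R tumors, 11.09, 11.16, 10.97 and 10.81 among VdR tumors and 10.99, 10.81, 10.86 and 10.92 among VR tumors. Its receptor Csf1r had 10.13, 10.43, 10.16 and 10.34 among R tumors, 11.39, 11.68, 11.79 and 11.45 among VdR tumors and 11.53, 11.35, 11.41 and 11.41 among VR tumors. For both genes all 8 Vnn1-carrying tumors lay above all R tumors, and the VR and VdR tumors overlapped. The log2 difference from R was 1.31 (SE 0.10, limma adjusted p = 4.31e-05) in VdR and 1.16 (adjusted p = 5.06e-05) in VR for Csf1r, and 0.78 (SE 0.11, adjusted p = 8.34e-04) and 0.66 (adjusted p = 0.0013) for Csf1. Between VR and VdR the differences were -0.15 for Csf1r (95% interval -0.36 to 0.05) and -0.11 for Csf1 (-0.34 to 0.12).

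Spi1, which encodes PU.1, had log2 values of 8.84, 9.14, 8.67 and 9.39 among R tumors, 10.27, 10.08, 9.95 and 9.93 among VdR tumors and 10.22, 10.30, 10.01 and 9.92 among VR tumors. The R tumors were lowest without overlap, and the ranges of VdR and VR nearly coincided. The difference was 1.05 (SE 0.14, limma adjusted p = 8.63e-04) in VdR over R, 1.11 (adjusted p = 4.06e-04) in VR over R and 0.06 (95% interval -0.26 to 0.37) in VR over VdR.

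The 2 chains of the receptor for granulocyte-macrophage colony-stimulating factor (Csf2ra binds the factor and Csf2rb carries the signal) had different values. Csf2ra had log2 values of 9.48, 9.38, 9.30 and 9.28 among R tumors, 9.73, 9.51, 9.04 and 9.53 among VdR tumors and 9.82, 10.09, 9.94 and 9.61 among VR tumors. VdR tumor 4 was the lowest of all 12 and VdR tumor 1 lay above the lowest VR tumor, so VR and VdR overlapped. The VR minus VdR difference of 0.41 (SE 0.13, 95% interval 0.12 to 0.71) was the largest toward VR and did not pass (limma adjusted p = 0.11, from 0.0743 to 0.499 over the alternatives). Csf2ra was higher in VR than in R (0.51, adjusted p = 0.0192; 0.0527, 0.0586 and 0.0529 without R replicate 4, VR replicate 2 and VR replicate 4) and had a difference of 0.09 in VdR over R (adjusted p = 0.75). Csf2rb was higher in both groups than in R, by 0.66 in VdR (adjusted p = 0.0253) and by 0.79 in VR (adjusted p = 0.00548), and its VR minus VdR difference was 0.13 (-0.22 to 0.49). The call of Csf2rb in VdR was lost without any of R replicates 1 and 4 and VdR replicates 1, 2 and 4 (adjusted p from 0.0549 to 0.0809). Csf2rb has a near-identical copy, Csf2rb2, and the probes may not tell them apart.

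Among the surface and granule markers of macrophages and monocytes, all 11 were higher in VdR than in R and 10 of 11 in VR than in R, with 0 of 11 passing between VR and VdR. Adgre1, the surface antigen by which mouse macrophages are usually identified, had log2 values of 9.15, 9.54, 8.97 and 9.24 among R tumors, 10.76, 10.86, 10.85 and 10.60 among VdR tumors and 10.80, 10.75, 10.58 and 10.56 among VR tumors. Both groups lay above every R tumor by more than 1 log2 unit, and they overlapped with each other. The differences from R were 1.55 (SE 0.11, 2.92-fold, limma adjusted p = 4.31e-05) in VdR and 1.45 (2.73-fold, adjusted p = 4.64e-05) in VR, and the VR minus VdR difference was -0.10 (95% interval -0.33 to 0.14).

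Itgam encodes the alpha chain of the integrin CD11b/CD18, which binds complement-coated particles, and Itgb2 encodes its beta chain. Itgam had log2 values of 7.87, 8.31, 7.38 and 7.58 among R tumors, 9.41, 9.59, 9.82 and 9.24 among VdR tumors and 9.45, 9.29, 9.18 and 9.06 among VR tumors. The R tumors were again the lowest, with a wider spread than the other groups, and VR tumors reached into the lower part of the VdR range. Itgam had the largest difference of the list between VdR and R, 1.73 (SE 0.18, 3.32-fold, limma adjusted p = 1.57e-04). It was 1.46 higher in VR than in R (2.75-fold, adjusted p = 2.87e-04), and the VR minus VdR difference was -0.27 (-0.66 to 0.12). Itgb2 was 0.80 and 0.81 higher than R in VdR and VR, and its VR minus VdR difference was 0.01 (-0.20 to 0.22).

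The other markers of this group had similar differences on either side of 0 between VR and VdR. Cx3cr1, a chemokine receptor of monocytes and resident macrophages, was higher than R by 1.27 in VdR and 1.00 in VR. Cd68, a lysosomal membrane protein of macrophages, was higher by 1.03 and 0.69, and Cd14, a co-receptor for bacterial lipopolysaccharide, was higher by 0.57 in VdR (limma adjusted p = 0.0075) with 0.32 in VR (adjusted p = 0.0606, and 0.0486 without R replicate 1 or 0.0479 without VR replicate 4). Their VR minus VdR differences were -0.27, -0.34 and -0.25. Aif1 (Iba1), which bundles actin at ruffling membranes, was higher than R by 0.89 in VdR and 1.12 in VR, and Mpeg1, a pore-forming protein of phagocytes, by 0.78 and 0.92. Lyz2, lysozyme of macrophages, was 0.70 and 0.75 higher, Ms4a7 1.23 and 1.08, and Ms4a6c 1.18 and 1.25. Lyz2 and the Ms4a genes have close relatives that could share probe signal.

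Fc receptors held the only gene of the list whose VR and VdR tumors did not overlap, Fcgr3, which encodes the low-affinity activating receptor for immunoglobulin G. Fcgr3 had log2 values of 8.42, 8.89, 8.36 and 8.38 among R tumors, 9.07, 9.47, 9.58 and 9.31 among VdR tumors and 9.05, 8.84, 8.88 and 9.05 among VR tumors. All VdR tumors lay above all VR tumors, by a margin of 9.07 against 9.05, and R tumor 2 overlapped with VR. Fcgr3 was 0.41 lower in VR than in VdR (SE 0.13, 0.755-fold, 95% interval -0.68 to -0.13), which did not pass across all genes. Its limma adjusted p was 0.103 and lay between 0.0614 and 0.317 in the alternative runs. By exact permutation the two-sided p was 0.0286, the smallest possible with 4 against 4 tumors. Every gene without overlap has this value, so it adds nothing to the lack of overlap by which Fcgr3 was singled out. With 1 non-overlapping gene of 40, the share was 2.5%, compared with 12.6% of all tested genes (5.88% higher and 6.77% lower in VR), and with arrays centred on their medians the count was 0. Relative to R, Fcgr3 was 0.84 higher in VdR (adjusted p = 0.00166) and 0.44 higher in VR (adjusted p = 0.0299). The latter call was lost with cyclic loess (adjusted p = 0.0605) and without any of R replicates 1, 4 and 5 and VR replicates 1, 4 and 5 (0.0511 to 0.0883).

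**Figure D3:**
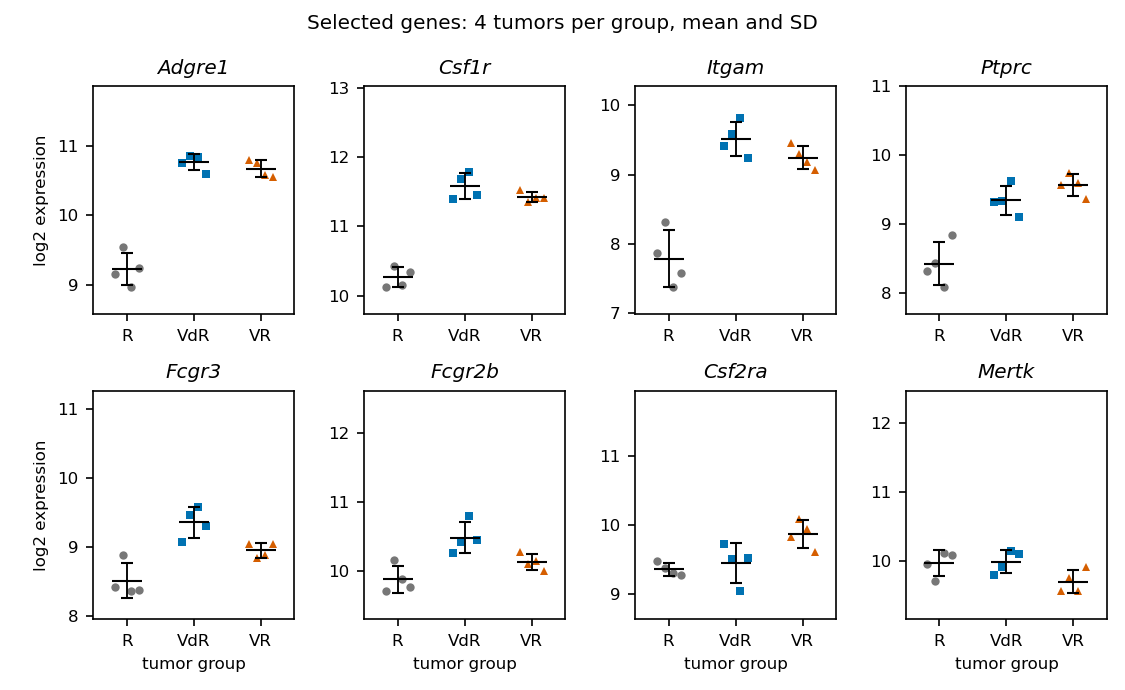
Log2 expression of 8 identity genes in each tumor (points), with the group mean and SD (bar and whiskers, n = 4); every panel spans the same log2 range. Adgre1, Csf1r, Itgam and Ptprc were higher in both Vnn1-carrying groups than in R, Fcgr3 is the gene without overlap between VR and VdR, Csf2ra had its largest values in VR, and Mertk lay in one range in R and VdR.

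The inhibitory receptor Fcgr2b, whose gene lies near that of Fcgr3, had its group means in the same order. Fcgr2b had a VR minus VdR difference of -0.35 (SE 0.12, 95% interval -0.61 to -0.09, limma adjusted p = 0.121), and the tumors overlapped because VdR tumor 1, at 10.26, lay just below VR tumor 1, at 10.28. It was 0.60 higher in VdR than in R (adjusted p = 0.0071), and the difference of 0.25 in VR over R did not pass (adjusted p = 0.15, and 0.0168 with array weights). Fcgr1, the high-affinity receptor, was higher than R by 0.79 in VdR and 0.75 in VR, with a VR minus VdR difference of -0.04. Fcgr4, another activating receptor, had differences of 0.28 and 0.40 from R that did not pass (adjusted p = 0.435 and 0.166). Probes for Fcgr2b, Fcgr3 and Fcgr4 may share signal.

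The signalling chains of these receptors were higher than in R tumors in both groups. Fcer1g, the ITAM chain that carries the signal of activating Fc receptors, had log2 values of 9.33, 10.23, 9.25 and 10.15 among R tumors, 10.82, 11.01, 11.18 and 11.09 among VdR tumors and 10.80, 11.22, 10.69 and 10.31 among VR tumors. Tyrobp (DAP12), the ITAM adaptor of TREM and related receptors, had 9.12, 9.66, 9.15 and 9.74 among R tumors, 10.54, 10.55, 10.82 and 10.50 among VdR tumors and 10.47, 10.64, 10.54 and 10.25 among VR tumors. R tumors 1 and 4 were low for both chains, VR tumor 5 was the lowest of its group for both, and neither chain had VR and VdR apart. Fcer1g was 1.28 higher in VdR (SE 0.23, limma adjusted p = 0.00482) and 1.02 higher in VR (adjusted p = 0.00925), and Tyrobp 1.19 (SE 0.14, adjusted p = 3.57e-04) and 1.06 (adjusted p = 4.95e-04). The VR minus VdR differences were -0.27 (95% interval -0.77 to 0.24) and -0.13 (-0.44 to 0.18).

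The ITIM receptors Sirpa, which binds Cd47 on other cells and restrains engulfment, and Lair1, a receptor for collagen, were also higher than R in both groups. Sirpa was higher by 0.76 in VdR and 0.74 in VR, and Lair1 by 0.79 and 0.92. Without R replicate 1, R replicate 4 or VdR replicate 4 the call of Lair1 in VdR was lost (limma adjusted p from 0.0508 to 0.0568). Fgr, a Src family kinase that acts below these receptors, was not called in VdR over R (0.05, adjusted p = 0.846) and had a difference of 0.33 in VR over R that was near the threshold (adjusted p = 0.0431, and lost without R replicate 1, 2 or 4 or VR replicate 1, 2 or 4, with 0.0761 to 0.117). Its VR minus VdR difference was 0.28 (95% interval 0.05 to 0.51, adjusted p = 0.158), with overlap of the tumors.

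Of the genes of uptake and the lysosome, 4 of 5 were higher in VdR than in R and 3 of 5 in VR than in R. Mertk, a receptor kinase by which macrophages engulf dying cells, had log2 values from 9.71 to 10.12 in R, from 9.80 to 10.15 in VdR and from 9.56 to 9.91 in VR. R and VdR tumors shared one range, with a difference of 0.02 (limma adjusted p = 0.947), and VR tumors reached lower. The VR minus VdR difference was -0.29 (SE 0.11, 95% interval -0.53 to -0.05, adjusted p = 0.177), and the VR minus R difference was -0.27 (adjusted p = 0.106, and 0.0336 without R replicate 2 and 0.0241 with array weights). Siglec1 (CD169), a lectin that binds sialic acid, was higher than R by 1.68 in VdR and 1.37 in VR, and its values ran from 8.37 to 9.85 in VR and from 8.96 to 9.97 in VdR. Msr1, a scavenger receptor, was 0.95 higher in VdR (adjusted p = 0.0149) and had a difference of 0.60 in VR (adjusted p = 0.0642, and 0.0238 without R replicate 5, 0.00776 with array weights and 0.028 in the tumors low in muscle markers). Siglec1 lost its call in both groups in the tumors low in muscle markers (0.0558 and 0.0657). The call of Msr1 in VdR was lost without R replicate 1 (0.051) or VdR replicate 2 (0.0528). Lgmn, a lysosomal protease, was 0.66 and 0.55 higher than R, and Laptm5, a lysosomal membrane protein of blood cells, 1.01 and 1.05.

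All 4 measured subunits of the phagocyte oxidase were higher than R in both groups, and 0 of 4 passed between VR and VdR. Cybb (gp91phox), the catalytic subunit in the membrane, had log2 values from 9.12 to 10.32 in R, from 10.53 to 10.87 in VdR and from 10.74 to 11.40 in VR, and was higher than R by 1.12 (limma adjusted p = 0.00718) and 1.49 (adjusted p = 8.11e-04). Its membrane partner Cyba (p22phox) was higher by 0.37 (adjusted p = 0.00239) and 0.22 (adjusted p = 0.0199). These partners had opposite signs between VR and VdR, 0.38 for Cybb (95% interval -0.10 to 0.85) and -0.15 for Cyba (-0.28 to -0.02, adjusted p = 0.198). The call of Cyba in VR over R was lost with centred arrays (adjusted p = 0.0507) and without R replicate 1 or 2 or VR replicate 2, 4 or 5 (0.051 to 0.0616). The cytosolic subunits Ncf1 (p47phox) and Ncf4 (p40phox) were higher by 1.22 and 1.13 in VdR and by 1.21 and 0.91 in VR.

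All 6 leukocyte surface genes were higher than R in both groups. Ptprc (CD45), the phosphatase on the surface of all nucleated blood cells, had log2 values of 8.32, 8.44, 8.10 and 8.85 among R tumors, 9.32, 9.34, 9.62 and 9.11 among VdR tumors and 9.57, 9.74, 9.60 and 9.36 among VR tumors. R tumors lay below all others, and VdR tumor 4 lay within the VR range. Ptprc was 0.92 higher in VdR (SE 0.15, limma adjusted p = 0.0022) and 1.14 higher in VR (adjusted p = 3.66e-04), with a VR minus VdR difference of 0.22 (-0.10 to 0.54). Cd52, a small glycoprotein anchored in the leukocyte membrane, had the largest difference of the list between VR and R, 1.60 (3.04-fold), and was 1.23 higher in VdR. The others were higher by 0.97 in VdR and 0.93 in VR for the tetraspanin Cd53, 0.93 and 1.05 for the adhesion receptor Cd84, 0.73 and 0.88 for the costimulatory ligand Cd86 and 1.32 and 1.27 for Ptafr, the receptor of platelet-activating factor.

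The tumors of a group also differed from each other across many of the genes at once. VR tumor 2 had the highest value of its group for 25 of 40 genes (19.0% of all tested genes) and VR tumor 5 the lowest for 28 (20.1% of all). VdR tumor 4 was highest for 26 genes (23.0% of all) and VdR tumor 5 lowest for 19 (24.6% of all), while R tumor 4 was lowest for 22 (23.4% of all). The mean log2 value of the 40 genes ran from 8.77 to 9.13 in R, from 9.78 to 10.00 in VdR and from 9.65 to 10.04 in VR. The VR range held the whole VdR range. Skeletal muscle markers differed between the tumors of a group as well. The mean of the 8 muscle markers was 9.32 in R tumor 2, 8.53 in R tumor 5, 8.88 in VdR tumor 2, 9.41 in VdR tumor 4 and 8.56 in VR tumor 2, and 6.70 to 6.84 in the other 7 tumors. Of the tumors high for muscle, R tumor 2 was highest in its group for 19 identity genes and R tumor 5 for 17. VdR tumor 4 was highest for 26 and VR tumor 2 for 25. VdR tumor 2, also high for muscle, was highest for only 6 and lowest for 9. VdR tumor 1, low for muscle, was highest for 8. A link between muscle and identity genes was not tested. A fit without these 5 tumors (2 R, 2 VdR and 3 VR tumors kept) was added after the data were seen. Its median identity gene difference was 1.09 in VdR over R, 1.08 in VR over R and -0.04 in VR over VdR. Between VR and VdR 0 identity genes passed there, but of all tested genes only 5 were higher and 2 lower in VR. The 0 therefore says little about the list.

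**Figure D4:**
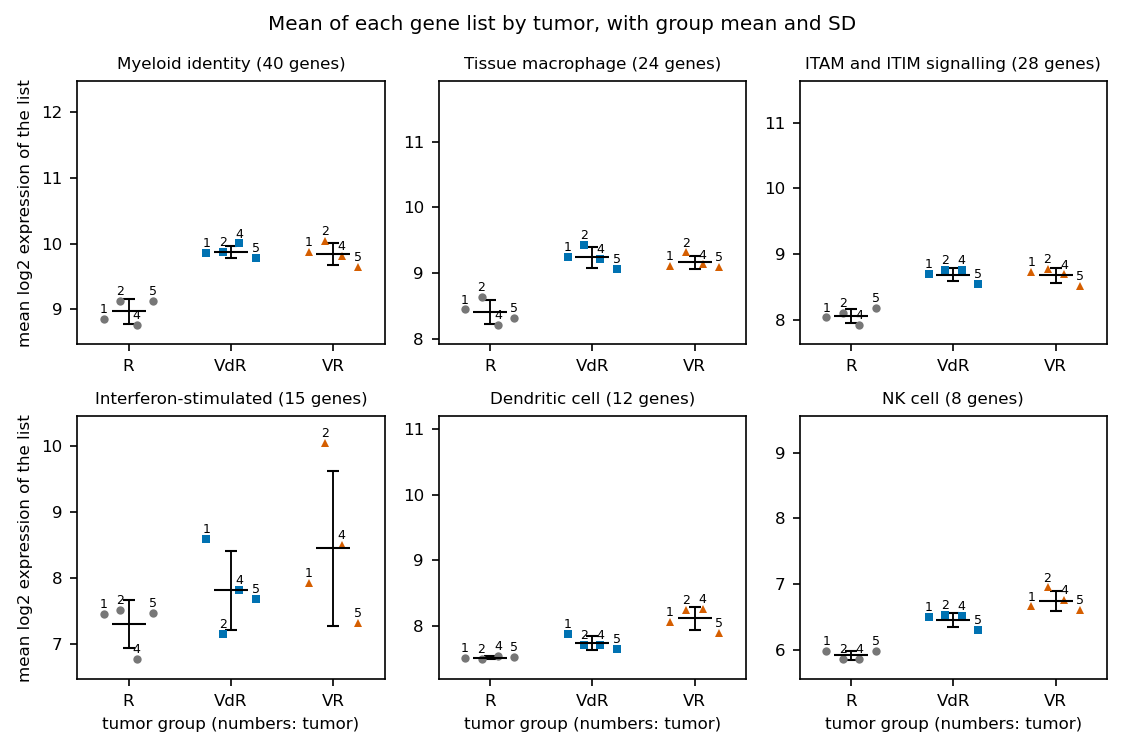
Mean log2 expression of 6 gene lists in each tumor (points, numbered by tumor) with the group mean and SD (n = 4); all panels span the same log2 range. VR and VdR tumors overlap for the 40 identity genes, tissue macrophage genes and ITAM and ITIM signalling, VR tumor 2 stands at 10.06 for interferon-stimulated genes, and all VR tumors lie above all VdR tumors for the dendritic cell and NK cell lists.

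Other genes of the same pathways were read from lists that hold none of the 40 genes. Of 28 tested genes of ITAM and ITIM signalling, 20 were higher and 0 lower in VdR than in R, 22 were higher and 1 was lower in VR, and 0 passed between VR and VdR. Trem2, a lipid-binding receptor that signals through Tyrobp, was 1.01 higher in VdR (limma adjusted p = 4.7e-05) and 1.03 higher in VR, with a VR minus VdR difference of 0.01. Of 24 tissue macrophage genes, 13 were higher and 0 lower in VdR, and 16 were higher and 1 lower in VR. Pf4, a chemokine of platelets and some macrophages, was 1.5 and 1.30 higher. In this list Axl, a receptor kinase related to Mertk, was 0.22 higher in VR than in VdR (limma adjusted p = 0.0303), with ranges from 12.24 to 12.33 and from 12.04 to 12.14, the opposite sign to Mertk. Axl was the only 1 of the 24 genes to pass between VR and VdR. There 14 differences of the list were below 0 and 10 above, with a median of -0.10 and the lowest at -0.87. At an unadjusted p under 0.05, 10 of 24 were counted, beside 19.2% of all tested genes.

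The partners of the oxidase were mostly not called. Of 9 tested partners, Rac2, the small GTPase of the active complex, was 1.14 higher in VdR than in R and 0.83 in VR, and the proton channel Hvcn1 was 0.49 and 1.01 higher. None of the 9 passed between VR and VdR by limma, with 2 at an unadjusted p under 0.05. Of 11 MS4A and CD300 genes, 4 were higher in VdR and 8 in VR, with the lowest p in both for Ms4a6b (1.57 and 1.45) and Ms4a6d (1.09 and 1.01). Of 10 tested monocyte genes, Ccr2, the receptor by which monocytes leave the marrow, was 1.35 higher in VdR and 2.27 in VR, and F13a1 1.70 and 1.12. The other 8 did not pass in either comparison, and the list median was -5.9e-04 in VdR over R and 0.00905 in VR over R, with 5 and 4 of 10 genes below 0. Of 23 myeloid transcription factors, 8 were higher and 0 lower in VdR, and 8 were higher and 5 lower in VR. Maf and Ikzf1 had the lowest p in both comparisons, with differences of 1.17 and 0.81 in VdR and 1.15 and 0.87 in VR.

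Among the growth factor and adhesion lists, 2 genes passed between VR and VdR. Flt3, the receptor of a growth factor of dendritic cell precursors, was 0.57 higher in VR (SE 0.13, limma adjusted p = 0.0344), with ranges from 7.42 to 7.74 in VR, from 6.62 to 7.22 in VdR and from 6.35 to 6.67 in R. It was the only one of 9 tested growth factor partners to pass. Cd47, the ligand of Sirpa, was 0.31 higher in VR (SE 0.07, adjusted p = 0.0311), with ranges from 11.60 to 11.79 in VR and from 11.26 to 11.49 in VdR, and was the only one of 19 adhesion genes to pass. Of the growth factor list 2 genes were higher in VdR than in R and 6 in VR than in R. Of the adhesion list 7 were higher and 2 lower in VdR, and 8 were higher and 3 lower in VR. Of 5 other Src family kinases and their regulators, Csk was higher than R in both groups (0.27 and 0.20), and 0 passed between VR and VdR.

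Markers of other cells moved in some groups together with the identity genes, and their part in the results was not tested. Of 12 dendritic cell markers, 4 were higher in VR than in VdR (Itgae 0.46, Xcr1 0.58, Flt3 0.57 and Ccr7 0.93, limma adjusted p from 0.0155 to 0.05), and the mean of the list ran from 7.49 to 7.54 in R, from 7.66 to 7.89 in VdR and from 7.90 to 8.26 in VR. Of 8 tested NK cell markers, 3 were higher in VR than in VdR, among them Ncr1, an activating receptor of NK cells (0.96, limma adjusted p = 0.00465). The markers did not all go one way, with 6 differences above 0 and 2 below, the lowest -0.68. The mean of the NK cell list ran from 5.85 to 5.98 in R, from 6.30 to 6.53 in VdR and from 6.61 to 6.95 in VR. Of 11 markers of the grafted fibroblast type, 3 were higher in VR than in VdR (Thy1 0.93, Lum 1.77 and Dcn 0.32), with means from 10.59 to 10.99 in R, from 10.80 to 11.08 in VdR and from 11.15 to 11.50 in VR. The mean of 10 endothelial markers ran from 8.55 to 9.15 in R, from 8.70 to 8.998 in VdR and from 9.03 to 9.38 in VR, with Tek higher in VR than in VdR. Between VR and VdR 1 of 4 B cell markers (Cd79b) and 1 of 2 erythroid markers (Alas2) were also higher, and 0 of 8 neutrophil, 6 T cell, 9 mast cell, 8 skeletal muscle, 6 adipocyte and 6 keratinocyte markers passed. Against R, all 9 tested mast cell markers had positive differences, with list medians of 0.93 in VdR (0 called) and 1.08 in VR (Kit and Fcer1a called), and the list mean ran from 6.52 to 7.71 in R, from 7.35 to 8.69 in VdR and from 6.75 to 8.75 in VR.

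The interferon-stimulated genes varied widely among the tumors of a group. The mean of 15 such genes ran from 6.76 to 7.52 in R, from 7.14 to 8.59 in VdR and from 7.32 to 10.06 in VR, with VR tumor 2 at 10.06 and VdR tumor 1 at 8.59. VR tumor 2 was also the highest of its group for Siglec1 (9.85), Fcgr1 (8.40), Fcgr4 (7.51) and Cybb (11.40), which interferon is known to induce. It was the highest for 25 of the 40 identity genes. In VdR, tumor 4 was the highest for each of these interferon-induced genes and for 26 of the 40 identity genes. VdR tumors 1 and 4 had 9.94 and 9.97 for Siglec1 and 8.09 and 8.10 for Fcgr1. For Fcgr4 they had 6.58 and 6.89, and for Cybb 10.80 and 10.87. The part of interferon in the differences of these genes was not tested. Without VR tumor 2 the VR minus VdR difference of Fcgr4 turned from 0.12 to -0.11, and 0 of 40 identity genes passed between VR and VdR.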

How the data were processed

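The authors measured total RNA of 12 tumors, 1 per array, on Affymetrix mouse gene arrays, and deposited log2 values of 35556 probesets made with RMA, which corrects background, quantile-normalizes the arrays and summarises probes, in the oligo package (version not given in the sources used here). Quantile normalization gives the arrays nearly one distribution, so a shift common to most genes cannot be seen. Probesets with 1 gene symbol (21789, with 1621 holding several and 12146 none) were reduced to 19938 genes by the highest mean over all arrays. No column of other samples was present. The tested genes (16573) had values above 5.38, the 25th percentile of the whole table, on at least 4 arrays. They were tested with limma 3.58.1 in R 4.3.3, using lmFit with 1 coefficient per group over all 12 arrays and eBayes, and Benjamini-Hochberg adjustment over all tested genes at 0.05. Exact permutation tests were two-sided. The fit was tested on simulated data.

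The identity genes, the other lists and the tests were chosen with earlier results of these data known. Values per tumor are given for genes called or not overlapping between VR and VdR and for Adgre1, Csf1r, Itgam, Ptprc, Spi1, Csf1, Tyrobp and Fcer1g. Csf2ra and the genes whose upstream sequence is shown were chosen after their values were seen. Of other lists, at most 4 genes called between VR and VdR and 2 per comparison with R are named by lowest p. The alternatives were no filter, a filter at the median, the mean of probesets, eBayes with trend and robust settings, weighted arrays, a cyclic loess, arrays centred on their medians, a replicate block, the compared groups alone, the methods' t-test (named for other assays) and leaving out each tumor. A fit of the 7 tumors with a skeletal muscle marker mean under 8 was added after the data were seen. Arrays give no read depth, and their number limits the precision.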

Additional observations from a re-analysis of the deposited data

Results flagged for a closer look

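Of 120 sets of 4 tumors (40 genes in 3 groups), 7 held a tumor whose gap to the nearest other tumor was large for the range of its group, where chance gives about 1 in 20. Tumor 2 of the R group was highest for Fcgr3, at 8.89 with the others from 8.36 to 8.42, and for Lgmn, at 11.72 with the others from 11.51 to 11.54. Tumor 5 of the R group was highest for Aif1, at 7.76 beside 7.08 to 7.17. Tumor 4 of the VdR group was highest for Tyrobp, at 10.82 beside 10.50 to 10.55, and for Mpeg1, at 10.81 beside 10.31 to 10.36. Tumor 5 of the VdR group was lowest for Itgb2, at 8.83 beside 9.10 to 9.11. Tumor 2 of the VR group was highest for Cd84, at 8.68 beside 8.29 to 8.36.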

How the results depend on the processing

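In every alternative run, 0 of 40 identity genes passed between VR and VdR. This adds little where few of all tested genes passed. Such runs were the methods' t-test, the fit without VR replicate 4 and the tumors low in muscle markers. Leaving out 1 tumor gave 33 to 36 identity genes higher in VdR than in R and 32 to 35 higher in VR than in R, and the median VR minus VdR difference ran from -0.12 to 0.04. Of the genes called, 30 of 36 (VdR over R) and 30 of 35 (VR over R) passed in every alternative other than the methods' t-test, which called 24 and 27. Identity genes lower in VR than in R numbered 0 to 1 when a tumor was left out and 1 with array weights, which was Mertk. Identity genes without overlap between VR and VdR numbered 0 with centring. They numbered 1 to 6 when a tumor was left out, where fewer tumors make a lack of overlap easier. The share over all tested genes was not computed there, so these counts are not read as a result.

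Over all tested genes, array weights gave 455 higher and 429 lower in VR than in VdR, 1757 higher and 838 lower in VdR than in R, and 2321 lower in VR than in R. The methods' t-test gave 12 and 18, 391 and 102, and 1448 (higher) and 672 (lower) between VR and R. Centring gave 152 lower in VR than in VdR, and moved the share of higher calls there from 51.4% to 62.7%, while cyclic loess moved it from 70.1% to 55.6% between VdR and R, and the t-test to 40% between VR and VdR. Leaving out 1 tumor gave 32 (VR replicate 4) to 320 higher and 54 (VR replicate 4) to 234 lower between VR and VdR, 684 to 1283 higher and 248 to 530 lower between VdR and R, and 776 to 1311 lower between VR and R. In the tumors low in skeletal muscle markers alone, 5 and 2 genes passed between VR and VdR (higher and lower), and the median differences from R were 1.09 in VdR and 1.08 in VR. There 8 identity genes did not overlap between VR and VdR, but 2 VdR and 3 VR tumors separate easily by their small number alone. The share over all tested genes was not computed, so this count is not read as a result. The share of higher calls between VR and VdR was 71.4%. A replicate block gave 0 identity genes between VR and VdR, 36 higher in VdR and 34 higher in VR than in R, with Fgr the call lost (adjusted p = 0.0706). Tumor numbers were not used as pairs in the main fit. With the group mean of each gene subtracted, same-numbered tumors correlated from -0.15 to 0.40. In each comparison 1 to 2 of 4 correlated best with their own number, and tumor 2 did so in every comparison (0.23, 0.36 and 0.40).

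Differences near 0 turned in sign. Ncf1 in VR versus VdR was 0.00962 with array weights and -0.0825 to 0.0686 when a tumor was left out. Mertk in VdR versus R was -0.0151 with cyclic loess, -0.00536 with centring and -0.0687 to 0.0835 when a tumor was left out, and Csf2ra in that comparison was -0.00231 to 0.23. In VR versus VdR the ranges over left-out tumors were -0.13 to 0.0578 for Cd53, -0.20 to 0.12 for Fcgr1, -0.11 to 0.26 for Fcgr4, -0.0581 to 0.0727 for Itgb2, -0.00116 to 0.15 for Ms4a6c, -0.21 to 0.0675 for Ptafr, -0.0812 to 0.0227 for Sirpa and -0.0065 to 0.13 for Spi1. In the tumors low in muscle markers the VR minus VdR differences turned to 0.0291 for Csf1r, -0.13 for Fcgr4, -0.0289 for Laptm5 and -0.0489 for Spi1, and Mertk in VdR versus R to -0.0906. Calls were lost there for Cd14, Csf2rb, Cyba and Siglec1 in VdR (adjusted p from 0.0558 to 0.14) and for Csf2ra, Cyba, Fgr and Siglec1 in VR (0.0554 to 0.177). The causes were not tested.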
